A study of Mus musculus with 24 samples.

Results

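Transcripts of 9 genes that are known to be made in the mouse oocyte were followed through cleavage: Zp1, Zp2, Zp3, Gdf9, Bmp15, Rfpl4, Btg4, Mos and Kit. They were chosen by symbol, as 9 of the 37229 rows of the deposited count table. Each of the 9 had counts in at least 1 embryo, so none was without counts in the whole series. A filter on low counts left 8 of them for testing, and Mos, which had 63 counts in a single embryo, was not tested. In the deposited TPM table, 8 of the 9 were present and Mos was not.

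RNA of 24 single ICR mouse embryos made by in vitro fertilization was sequenced with Smart-seq2, which copies polyadenylated RNA from its tail with an oligo(dT) primer. The control embryos were left intact and comprised 4 8-cell embryos, 5 morulae and 3 blastocysts. The split embryos had been parted at the late two-cell stage after a pretreatment in G-PGD embryo biopsy medium, and each blastomere grew alone in modified sodium hyaluronate gel. They comprised 6 morulae and 6 blastocysts, in 3 sister pairs at each stage, and there was no split 8-cell group, no oocyte and no zygote. The labels gave no genotype, transgene, litter or batch, and described the controls as intact and grown in parallel under matched conditions.

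The growing oocyte stores messenger RNA that the embryo later uses and removes, and most of this store is degraded around genome activation at the two-cell stage. ZP1, ZP2 and ZP3 build the zona pellucida, the glycoprotein coat of the egg. GDF9 and BMP15 are secreted TGF-beta family proteins by which the oocyte signals to its granulosa cells. BTG4 brings the CCR4-NOT deadenylase to stored messages and so promotes their removal, MOS is the kinase that starts the MAP kinase cascade of meiotic arrest, RFPL4 is a RING finger protein of oocytes and early embryos, and KIT is the receptor for Kit ligand on oocytes.

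The sequences just upstream of 3 of these genes are shown because Zp3, Rfpl4 and Btg4 were among the members that passed a test. They are the 250 bases before the annotated start, 5′ to 3′ on the strand of the gene, from RefSeq on build GRCm38.p6. The deposited counts were made on GRCm39, so only the letters are used here. Capitals mark the E-box core CANNTG, which reads the same on both strands and is the kind of site bound by FIGLA, an oocyte factor known to activate the zona genes.
Zp3 promoter, chr5:135979855-135980104, plus strand: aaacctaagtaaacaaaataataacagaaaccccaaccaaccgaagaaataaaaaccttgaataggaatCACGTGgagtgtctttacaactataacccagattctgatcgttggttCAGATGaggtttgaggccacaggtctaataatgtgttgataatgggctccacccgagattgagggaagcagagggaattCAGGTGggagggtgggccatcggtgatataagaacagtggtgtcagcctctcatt
Rfpl4 promoter, chr7:5116912-5117161, minus strand: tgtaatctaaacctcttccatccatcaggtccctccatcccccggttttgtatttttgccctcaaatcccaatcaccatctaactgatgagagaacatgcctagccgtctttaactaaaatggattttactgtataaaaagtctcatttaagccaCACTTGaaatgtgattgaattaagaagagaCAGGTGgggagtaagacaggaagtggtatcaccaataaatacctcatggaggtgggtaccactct
Btg4 promoter, chr9:51115751-51116000, plus strand: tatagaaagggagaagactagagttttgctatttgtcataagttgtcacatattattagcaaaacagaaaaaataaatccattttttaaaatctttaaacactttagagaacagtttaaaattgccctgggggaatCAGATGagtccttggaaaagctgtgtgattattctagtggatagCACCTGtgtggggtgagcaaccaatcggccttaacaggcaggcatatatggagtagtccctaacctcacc
Zp3 held 3 E-box cores, at 181, 134 and 55 bases before its start. Rfpl4 held 2, at 95 and 65 bases, and Btg4 held 2, at 114 and 70 bases. The core nearest the start was CAGGTG in Zp3 and Rfpl4 and CACCTG, the same site on the other strand, in Btg4. CANNTG was found in 66.0% of 27025 mouse promoters of this length, and CACCTG or CAGGTG, a subset of it, in 17.1%. Of the 5 members with a promoter entry, Bmp15 held 1 E-box core and Kit held 0. The motif TAATTG, with its reverse complement CAATTA, was in 7.34% of promoters and in none of the 5. Zp1, Zp2, Gdf9 and Mos were not matched.

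Library totals ran from 26.3 to 38.5 M counts in control 8-cell embryos, 13.9 to 19.01 M in control morulae, 14.1 to 18.9 M in split morulae, 11.3 to 12.7 M in control blastocysts and 13.4 to 25.2 M in split blastocysts. A count of 0 therefore allows a level of up to 0.0779 CPM (counts scaled to a fixed library total) in the deepest library and up to 0.265 CPM in the shallowest, by the rule of 3 counts. The 8-cell embryos were the deepest group, and depth moved with stage. Of 17 stage markers of the embryo, 15 were tested between control 8-cell embryos and control morulae, 6 rose and 2 fell. That is 53.3% called by edgeR, beside 24.9% of all genes tested. Gata3, a trophectoderm factor that rose, averaged 5.0 CPM ± 3.74 (SD, n = 4) in control 8-cell embryos and 192 CPM ± 50.8 (SD, n = 5) in control morulae. Of 22 cumulus and granulosa cell markers, which could mark maternal cells carried along, 9 were at 0 in all 24 embryos, including Amh, Foxl2, Fshr and Lhcgr. The summed level of the 22 was 2.11 to 60.6 CPM over the embryos, of which Amhr2 and Star made up most, and 0 to 5.42 CPM without those. Of the 3 that were tested between control 8-cell embryos and control morulae, 0 were called by edgeR or DESeq2 and 1 had an unadjusted p under 0.05. Their part in the results was not tested.

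Per length, Zp3 had the highest mean level of the 8 members in the TPM table in control 8-cell embryos. It averaged 34.2 TPM ± 29.7 (SD, n = 4), followed by Rfpl4 at 16.3 TPM, Btg4 at 11.8 TPM, Gdf9 at 4.62 TPM, Zp2 at 4.03 TPM, Zp1 at 3.63 TPM, Bmp15 at 1.87 TPM and Kit at 0.832 TPM. Neighbours in this order differed by less than the spread between embryos. At 1 CPM or more, 4 to 8 of the 9 members were present in a control 8-cell embryo, 0 to 5 in a control morula, 0 to 3 in a split morula, 1 to 4 in a control blastocyst and 0 to 2 in a split blastocyst. These are whole embryos, so fewer cells holding a transcript and less of it per cell cannot be told apart.

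**Figure D1:**
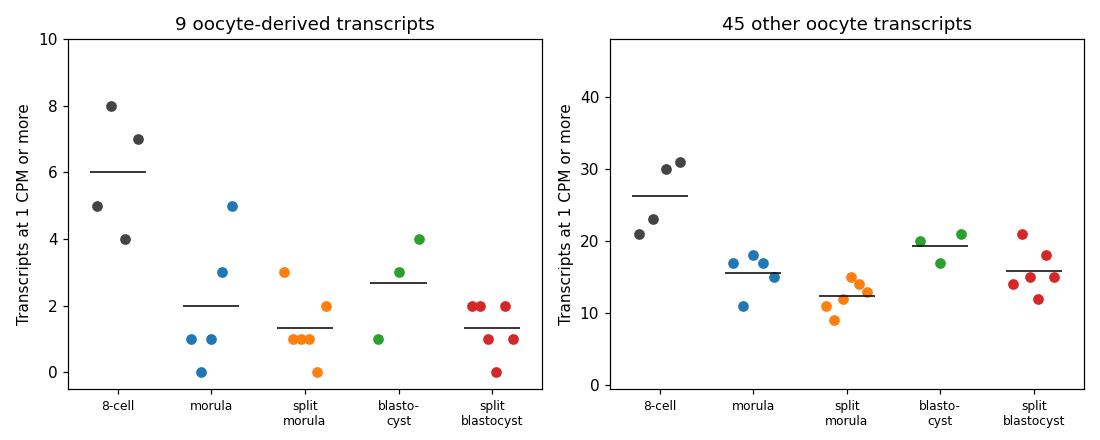
Number of transcripts at 1 CPM or more in each embryo (vertical axis), by group (horizontal axis), for the 9 oocyte-derived transcripts (left) and 45 other oocyte transcripts (right); a point is an embryo and a line is the group mean. The 4 control 8-cell embryos held 4 to 8 of the 9 and 21 to 31 of the 45, and the split morulae 0 to 3 and 9 to 15.

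Control embryos at the 8-cell stage and the morula were compared first, to see which of these messages were still measurable after the 8-cell stage. Of the 8 members tested, 3 fell and 0 rose: Zp1, Rfpl4 and Btg4. In this comparison 24.9% of the 15875 genes tested were called, 10.7% lower and 14.3% higher, at an adjusted p under 0.05 by edgeR's quasi-likelihood F test. The median fitted log2 change was -2.73 over the 8 members and 0.09 over all genes tested. With genes at 0 in a group set at their bound, the medians were -2.73 and 0.04. Most members passed the filter through their 8-cell counts, so these medians and counts are a description of them and no support. All 3 calls ended when control 8-cell embryo 2 was left out, with adjusted p = 0.0615 for Zp1, 0.0699 for Rfpl4 and 0.131 for Btg4. With only these 2 groups in the fit, the filter on low counts left 5 members, without Zp1, Rfpl4 and Btg4, and 0 of the 5 were called.

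Zp1 encodes the zona protein that links the filaments of the coat. It had 168, 229, 0 and 12 counts in control 8-cell embryos 1 to 4 and 0 in each of the 5 control morulae. The groups overlapped, because 8-cell embryo 3 was also at 0. The mean of 3.09 CPM ± 3.60 (SD, n = 4) in 8-cell embryos was at least 17.6-fold higher than the floor of 3 counts at the median morula depth, and the adjusted p was 0.0339 (edgeR). Leaving out any 1 control morula also ended the call, with adjusted p from 0.0569 to 0.0592.

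Zp2, which encodes the zona protein that binds sperm, had 187, 254, 90 and 64 counts in the 8-cell embryos and 0, 0, 6, 135 and 70 in control morulae 1 to 5. Control morulae 4 and 5 lay inside the 8-cell range and the other 3 below it. The mean was 4.69 CPM ± 2.75 (SD, n = 4) and then 2.43 CPM ± 3.49 (SD, n = 5), with a fitted log2 change of -0.95 ± 1.87 (SE) and an adjusted p of 0.769 (edgeR).

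Zp3 encodes the zona protein to which ZP2 pairs in the filament. It had 94, 949, 965 and 223 counts in the 8-cell embryos and 126, 11, 20, 74 and 172 in control morulae. Zp3 and Btg4 were the members with counts in every embryo of both groups, and the groups overlapped in Zp3. The mean was 19.5 CPM ± 17.2 (SD, n = 4) and then 4.48 CPM ± 3.55 (SD, n = 5), with a fitted log2 change of -2.11 ± 1.01 (SE) and an adjusted p of 0.125 (edgeR).

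**Figure D2:**
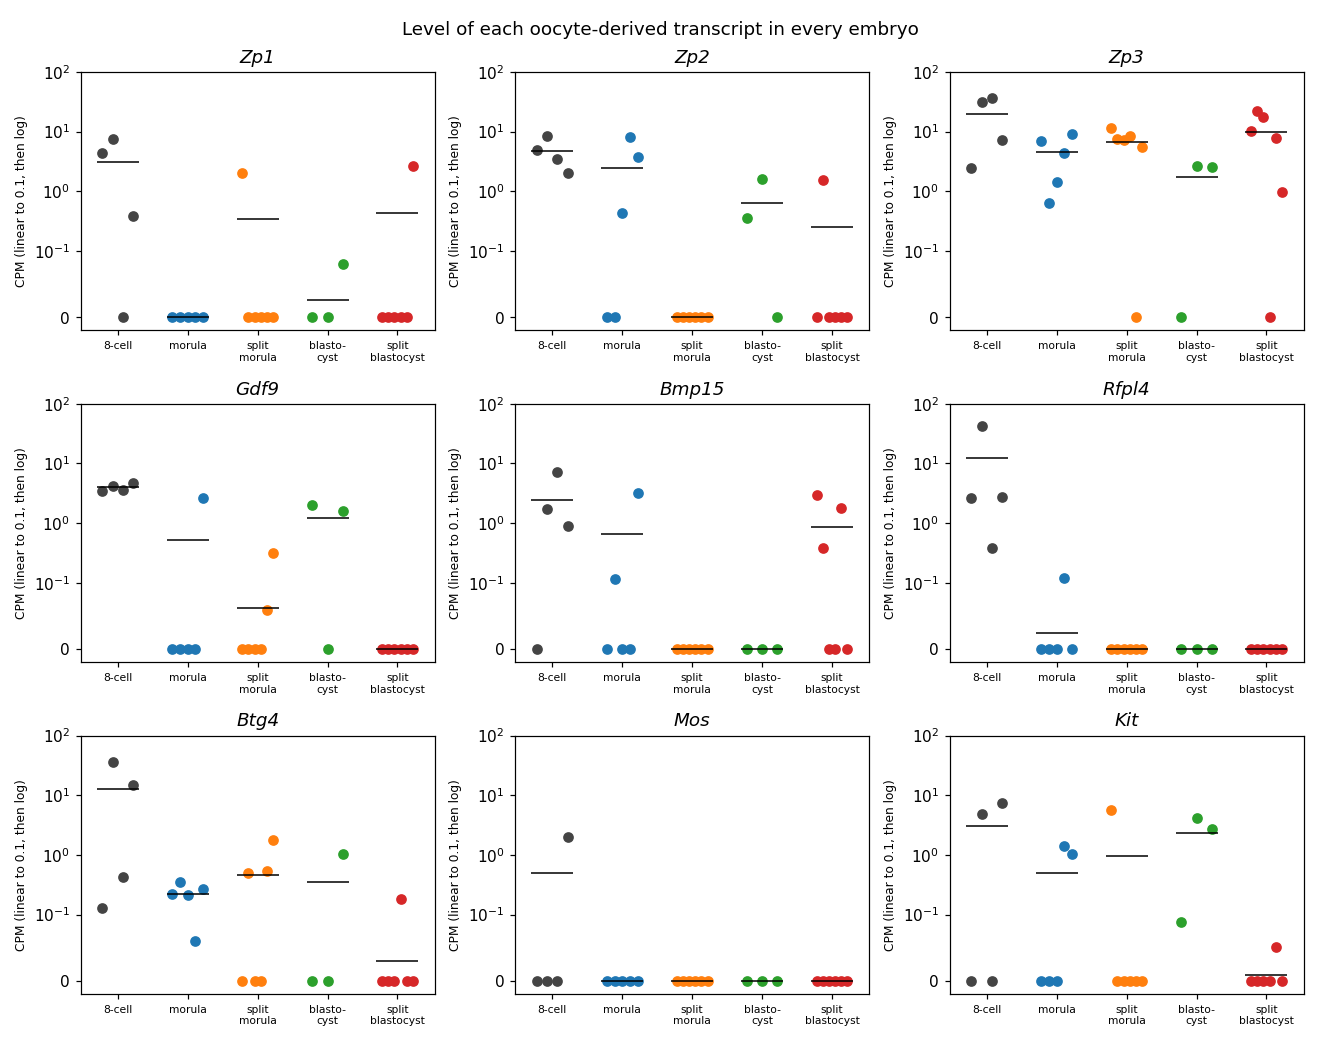
Level of each of the 9 transcripts in every embryo, in CPM on an axis that is linear up to 0.1 and logarithmic above it, by group; a point is an embryo and a line is the group mean. Rfpl4 was above 0 in all 4 control 8-cell embryos and in 1 later embryo, whereas Zp3 had counts in at least 1 embryo of each sister pair at both stages.

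Gdf9 was the most even of the members among 8-cell embryos, with 133, 125, 95 and 144 counts and a mean of 3.96 CPM ± 0.527 (SD, n = 4). In control morulae it had 50 counts in embryo 5 and 0 in embryos 1 to 4. The 8-cell range of 3.45 to 4.61 CPM lay above every morula, and the fitted log2 change was -2.88 ± 2.09 (SE) with an adjusted p of 0.335 (edgeR). Without control morula 5 it was -9.82 with an adjusted p of 0.0202, and limma called it on the log2(TPM + 1) scale at an adjusted p of 0.00196. Gdf9 overlaps Uqcrq, a respiratory complex III gene, and the strand setting of the counting was not stated. Some Gdf9 counts may therefore belong to Uqcrq, and the Gdf9 values are uncertain. Uqcrq was at 520 to 739 CPM in the 8-cell embryos and 419 to 628 CPM in control morulae. It was at 479 to 560 CPM in split morulae, 764 to 874 CPM in control blastocysts and 612 to 871 CPM in split blastocysts. How far Uqcrq adds to Gdf9 was not tested.

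Bmp15, the X-linked partner of Gdf9, had 0, 52, 190 and 28 counts in the 8-cell embryos and 0, 2, 0, 0 and 60 in control morulae. The groups overlapped, and control morula 5 had a higher CPM than 3 of the 8-cell embryos. The fitted log2 change was -1.89 ± 2.21 (SE) with an adjusted p of 0.582 (edgeR).

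Rfpl4 had 100, 1283, 10 and 86 counts in the 8-cell embryos and 0, 0, 0, 2 and 0 in control morulae. The groups did not overlap, and 8-cell embryo 2 held 42.6 CPM against 0.38 to 2.75 CPM in the other 3. The ratio of pooled counts per pooled library total was 499, with a 95% counting interval of 138 to 4128 that covers counting error only. This ratio rests mainly on embryo 2, which held 1283 of the 1479 counts of the 8-cell embryos. The fitted log2 change was -8.73 ± 2.09 (SE), with an adjusted p of 0.00612 (edgeR). Reads of the related gene Rfpl4b may be shared with Rfpl4, since the handling of reads with several matches was not stated. Rfpl4b had 136 counts in 1 of the 8-cell embryos, a level of 5.17 CPM, and 0 in the rest of them. It had 77 counts over 2 of the control morulae. Sharing of reads was not tested.

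Btg4 had 5, 1080, 11 and 467 counts in the 8-cell embryos and 4, 6, 3, 1 and 5 in control morulae. The groups overlapped: 8-cell embryos 1 and 3, at 0.130 and 0.419 CPM, were near the morula range of 0.0595 to 0.351 CPM, and embryos 2 and 4 were far above it. The mean was 12.8 CPM ± 16.8 (SD, n = 4) and then 0.221 CPM ± 0.106 (SD, n = 5), with a fitted log2 change of -5.80 ± 1.89 (SE) and an adjusted p of 0.0291 (edgeR). Btg4 overlaps Hoatz, Mir34b and Mir34c in the annotation, so without a known strand setting its counts are uncertain too. Leaving out control morula 1, 3, 4 or 5 also ended the call, with adjusted p from 0.0522 to 0.0601.

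Mos had 63 counts in control 8-cell embryo 4, a level of 2.02 CPM, and 0 in the other 23 embryos. Kit had 0, 146, 0 and 233 counts in the 8-cell embryos and 0, 0, 0, 24 and 20 in control morulae. Kit was thus split within each group, with the 8-cell embryos that held it above both morulae that did. Its fitted log2 change was -2.58 ± 2.25 (SE), with an adjusted p of 0.433 (edgeR).

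The spread among the 8-cell embryos was wide for most members, with Gdf9 the most even. The median coefficient of variation over the 4 embryos was 1.19 for the 8 tested members and 0.688 for 4444 other tested genes whose means fell in the same range of 2.46 to 19.5 CPM. A count of 0 in at least 1 embryo occurred in 3 of the 8 members (37.5%) and in 19.3% of those genes. Embryo 2 had the highest summed level of the 9, 137 CPM against 17.8, 51.8 and 42.2 CPM in embryos 1, 3 and 4. The summed level of 45 other oocyte transcripts without Dppa3 was also highest in embryo 2, at 556 CPM against 524, 355 and 428 CPM, while 23 of the 45 were at 1 CPM or more there against 21, 30 and 31.

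Control blastocysts were next set against control morulae and against the same 8-cell embryos, so the comparisons that use them share those samples. From morula to blastocyst, 0 of the 8 members were called by edgeR, while it called 10.6% of all genes. Of the members, 0 had an unadjusted p under 0.05 (edgeR) and DESeq2 called 0. From 8-cell to blastocyst, 2 members fell and 0 rose, where 26.9% of all genes were called, 11.9% lower and 15% higher. These were Zp3 and Rfpl4. Zp3 had 0, 33 and 32 counts in the 3 control blastocysts, a mean of 1.72 CPM ± 1.49 (SD, n = 3), and these overlapped the 8-cell range at its lowest embryo. Its fitted log2 change was -3.92 ± 1.33 (SE), with an adjusted p of 0.0335 (edgeR), and leaving out 8-cell embryo 2 or 3 or any 1 control blastocyst ended the call, with adjusted p from 0.0650 to 0.0844. Rfpl4 had 0 counts in all 3, so the 8-cell mean was at least 50.5-fold higher, with an adjusted p of 0.0114 (edgeR) that became 0.0598 without 8-cell embryo 2. That embryo held 1283 of the 1479 counts of its group, so the fold rests mainly on it.

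Gdf9, Kit, Zp2 and Btg4 were also measurable in some control blastocysts. Gdf9 had 23, 0 and 20 counts and Kit had 1, 52 and 34, levels that reached 2.03 CPM for Gdf9 and 4.11 CPM for Kit. Those of Kit lay inside the 8-cell range, and those of Gdf9 lay below it. Zp2 had 4, 20 and 0 counts, and Btg4 had 0, 0 and 13. Zp1 had 0, 0 and 1, which cannot be told from 0, and Bmp15 had 0 in all 3.

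Split and control embryos were compared at matched stages, with the counts of 2 sisters summed to 1 unit. Between split and control morulae edgeR called 0 of the 8 members and 0.126% of all genes. An unadjusted p under 0.05 (edgeR) was found for 3 members and for 2377 of the 15875 genes tested. DESeq2 called 1 member, and over all genes 266 higher and 410 lower. For split against control blastocysts edgeR called 0 members and 4.74% of all genes. Here 2 members and 2411 genes had an unadjusted p under 0.05 (edgeR). DESeq2 called 0 members, and over all genes 880 higher and 527 lower. The difference between the split effects at the 2 stages was called by edgeR for 0 members and 1.64% of all genes. It had an unadjusted p under 0.05 (edgeR) for 3 members and 2272 genes. DESeq2 called it for 0 members, and over all genes for 584 higher and 290 lower. A p that misses the threshold does not show that split and control embryos were alike in these messages.

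In the 6 split morulae Zp2, Bmp15, Rfpl4 and Mos had 0 counts throughout. Fewer genes of any kind had counts in these libraries, 10372 to 12124. Control morulae had 12669 to 13385 and control 8-cell embryos 12483 to 13632. The floors take account of library totals only, and the part of this general loss in the zeros was not tested. Against control 8-cell embryos, 2 members were called lower and 0 higher, where 19.8% of all genes were called, 7.37% lower and 12.4% higher. Zp2 was one of them, with an 8-cell mean at least 27.0-fold higher and an adjusted p of 0.0365 (edgeR), which became 0.0566 without 8-cell embryo 2 and 0.0832 to 0.102 without 1 of the sister pairs. Rfpl4 was the other, with an 8-cell mean at least 69.6-fold higher and an adjusted p of 0.0100 (edgeR), which became 0.0536 without 8-cell embryo 2. The fold of Rfpl4 rests mainly on that embryo here too. Against control morulae, the Zp2 mean of those was at least 14.0-fold above the floor of the split morulae, with an adjusted p of 0.235 by edgeR and 0.0114 by DESeq2, and the groups overlapped because control morulae 1 and 2 were at 0 as well.

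Zp3 remained measurable in most split embryos. Over the 6 split morulae its level had a lowest value of 0, a median of 7.31 CPM and a highest of 11.3 CPM, and over the 6 split blastocysts a lowest of 0, a median of 9.03 CPM and a highest of 21.8 CPM. One embryo of each group was at 0, and the split morulae overlapped the control morulae. As sister sums, the 3 split blastocyst units ranged from 3.98 to 16.3 CPM and lay above the 3 control blastocysts, which ranged from 0 to 2.61 CPM. The fitted log2 change was 2.65 ± 1.29 (SE), with an adjusted p of 0.338 (edgeR), so the difference was not called. From split morula to split blastocyst Zp3 had a fitted log2 change of 0.38 ± 1.21 (SE), which became -0.0101 without split morula pair 3 and -0.33 without split blastocyst pair 1. Here edgeR called 0 of the 8 members and 4.17% of all genes. An unadjusted p under 0.05 (edgeR) was found for 2 members and 3213 genes. DESeq2 called 0 members, and over all genes 801 higher and 896 lower.

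Kit had 1 count in the 6 split blastocysts together, in the first sister of pair 3. As pooled counts per pooled library total, the control blastocysts were 273 times higher, with a 95% counting interval of 47.7 to 10906. The units of the groups did not overlap in CPM, at 0.0884 in control blastocyst 1 and 0.0224 in split pair 3. Each of those levels was 1 count and cannot be told from 0. The adjusted p was 0.315 (edgeR). Among the split morulae Kit had 103 counts in the first sister of pair 1 and 0 in the other 5. Gdf9 had 0 counts in all 6 split blastocysts and 1 and 5 counts in the sisters of split morula pair 3. Bmp15 had 56, 8, 0, 0, 35 and 0 counts over the split blastocysts of pairs 1 to 3, in the order of the sisters, where the control blastocysts had 0. Btg4 had 7, 9 and 28 counts in 3 split morulae and 3 counts in 1 split blastocyst, and was at 0 in the rest.

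Sisters come from the same two-cell embryo, which allows each message to be looked for in both. Over 9 members and 6 pairs there were 54 combinations, of which 37 had 0 counts in both sisters, 10 had counts in 1 sister and 7 had counts in both. In 7 of the 10, the sister with counts had at least 10. Zp3 accounted for 4 of the 7 combinations with counts in both. In pair 2 of the split blastocysts, Zp3 had 232 counts in the first sister and 0 in the second, and in pair 3 of the split morulae it had 0 and 89. In pair 2 of the split morulae the sisters were close, at 137 and 149.

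Finding a message in 1 sister only was not limited to these genes. In split morulae 4 of 8 detected combinations of tested members (50%) had counts in 1 sister, against 57.2% for 6176 other tested genes whose split morula means fell in the same range. In split blastocysts it was 6 of 9 (66.7%), against 34.2% for 7787 such genes. The range was 0.0618 to 6.67 CPM in split morulae and 0.00857 to 9.68 CPM in split blastocysts. Zp3 set the top of both, and the next highest members were Kit at 0.954 CPM and Bmp15 at 0.862 CPM. Within these ranges the genes were not matched to the members in level, so the shares are not those of genes at like level. The members' shares rest on 8 and 9 combinations and were not tested.

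**Figure D3:**
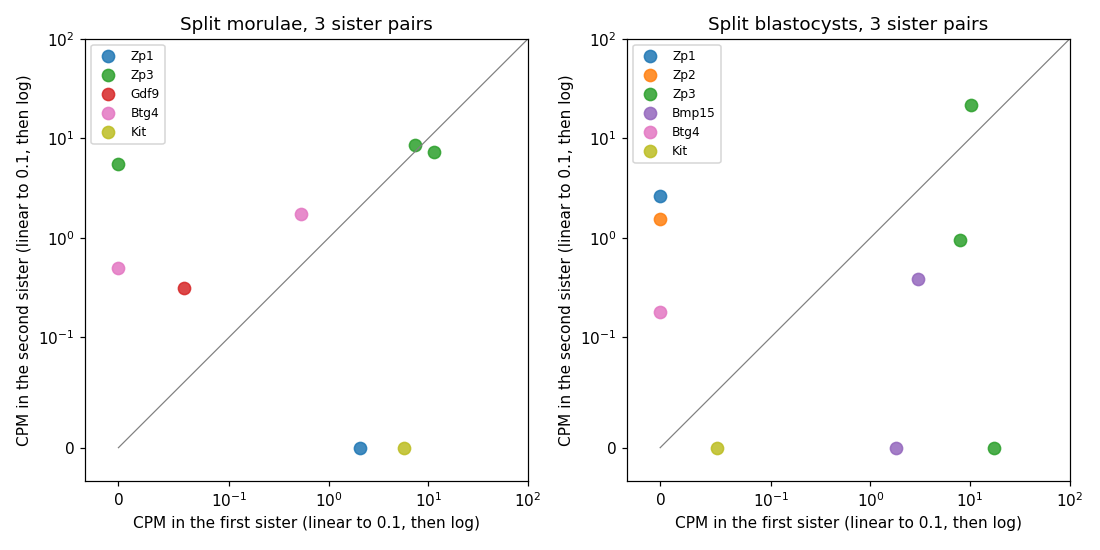
Level of each member in the first sister (horizontal axis) and the second sister (vertical axis) of the 3 split morula pairs (left) and 3 split blastocyst pairs (right), in CPM on axes that are linear up to 0.1 and logarithmic above it; a point is a member in a pair, the line marks equal levels, and members at 0 in both sisters are left out. Points on an axis mark the 10 combinations with counts in 1 sister.

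Beyond the 9, a list of 45 other transcripts of the growing oocyte was followed. From control 8-cell embryos to control morulae, 9 of the 36 tested fell, 3 rose and 24 were not called (33.3% called, beside 24.9% of all genes), with a median fitted log2 change of -1.47 against 0.09 over all genes. With genes at 0 in a group at their bound, the medians were -1.31 and 0.04. Genes could pass the filter on low counts through their 8-cell embryos alone, so these medians and counts are a description and no support. Nlrp14, an oocyte NLR family gene, averaged 14.7 CPM ± 8.82 (SD, n = 4) in 8-cell embryos and 0 in the 5 morulae, at least 83.8-fold apart, with an adjusted p of 0.00333 (edgeR). Omt2b, an oocyte maturation gene with a close copy in Omt2a, fell from 85.3 CPM ± 52.2 (SD, n = 4) to 1.68 CPM ± 2.26 (SD, n = 5), with a log2 change of -5.68 ± 1.45 (SE) and an adjusted p of 0.00889 (edgeR). The 3 that rose were Sohlh2, Khdc3 and Gtsf1, of which the last 2 are named because the count is small and were chosen after their values were seen. Sohlh2, a helix-loop-helix factor of the early oocyte, was at 0 in the 4 8-cell embryos and averaged 6.05 CPM ± 4.44 (SD, n = 5) in morulae, at least 61.9-fold higher, with an adjusted p of 0.000188 (edgeR). Khdc3, a subunit of the subcortical maternal complex, rose from 18.5 CPM ± 10.9 (SD, n = 4) to 284 CPM ± 32.8 (SD, n = 5), and Gtsf1, a piRNA pathway factor, from 45.98 CPM ± 25.2 (SD, n = 4) to 133 CPM ± 24.1 (SD, n = 5).

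**Figure D4:**
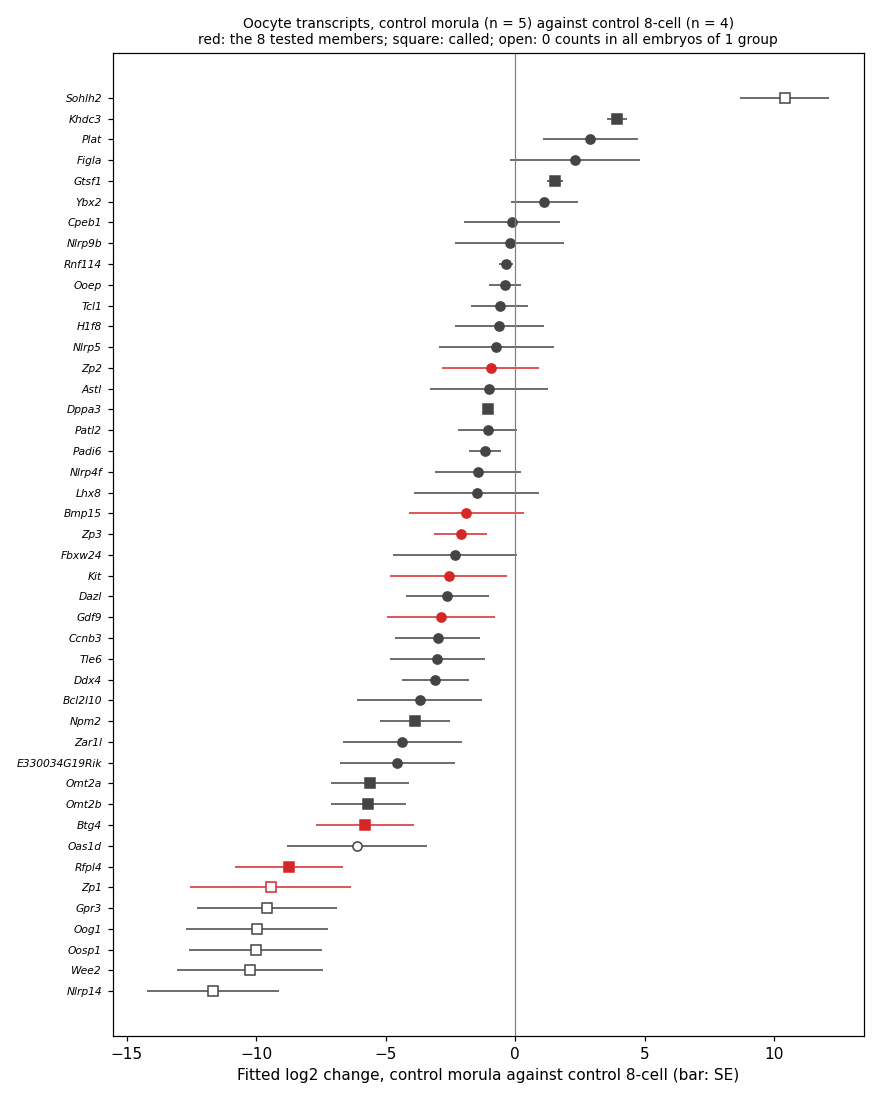
Fitted log2 change between control morulae (n = 5) and control 8-cell embryos (n = 4) on the horizontal axis for 8 members (red) and 36 other oocyte transcripts (dark grey), ordered by size; bars are standard errors, squares mark genes called at an adjusted p under 0.05 and open symbols genes at 0 counts in all embryos of 1 group, whose fitted change is no bound. Most symbols lie left of 0, and Sohlh2, Khdc3 and Gtsf1 are the called genes to its right.

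Between split and control morulae edgeR called 0 of the 36 and 0.126% of all genes. An unadjusted p under 0.05 (edgeR) was found for 10 of the 36 and for 2377 of 15875 genes. DESeq2 called 3 of the 36, and over all genes 266 higher and 410 lower. At the blastocyst stage 2 were called higher in split embryos and 0 lower, which is 5.56% of the 36 beside 4.74% of all genes. Rnf114, a ubiquitin ligase, was at 52.8 CPM ± 13.2 (SD, n = 3 units) against 27.1 CPM ± 4.201 (SD, n = 3), with a log2 change of 1.15 ± 0.32 (SE) and an adjusted p of 0.0389 (edgeR). Dppa3, a maternal protein that protects DNA methylation, was the other, with a log2 change of 0.81 ± 0.19 (SE) and an adjusted p of 0.0129 (edgeR). Leaving out control blastocyst 1 or 3, or sister pair 2, left 0 called, and leaving out control blastocyst 2 or sister pair 1 or 3 left 1.

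The partners of each member were taken by role, for control morulae against control 8-cell embryos, where 14.3% of all genes rose and 10.7% fell. Among genes of the zona and fertilization, 4 of 11 were tested, 2 rose and 1 fell. Furin, a proprotein convertase, rose from 2.15 CPM ± 0.933 (SD, n = 4) to 11.9 CPM ± 6.83 (SD, n = 5), and Cd9, the egg tetraspanin needed for sperm fusion, from 932 CPM ± 361 (SD, n = 4) to 1499 CPM ± 129 (SD, n = 5). Ovgp1, an oviduct glycoprotein, fell from 3.67 CPM ± 2.73 (SD, n = 4) to 0.0105 CPM ± 0.0235 (SD, n = 5), and is named because it is the single gene that fell. The median fitted log2 change of the 4 was -0.17, beside 0.09 over all genes.

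Receptors, processing enzymes and signal genes of the TGF-beta family, to which GDF9 and BMP15 belong, made up a list of 21. Of these 20 were tested, 2 rose and 2 fell (20% called, beside 24.9% of all genes), with a median log2 change of -0.27. Acvr2b, an activin type II receptor, rose from 1.09 CPM ± 1.67 (SD, n = 4) to 8.17 CPM ± 2.40 (SD, n = 5), with an adjusted p of 0.0252 (edgeR), and Furin was the other that rose. Bmpr1b and Acvr1 are type I receptors of BMP signals and are named because the count is small. Both had 0 counts in the 5 morulae, with 8-cell means at least 18.5-fold and 15.2-fold higher. The call of Bmpr1b ended in 1 of 16 alternatives and that of Acvr1 in 7 of 19. Bmpr2, the type II receptor that GDF9 and BMP15 share, was at 27.6 CPM ± 13.2 (SD, n = 4) and 21.2 CPM ± 8.31 (SD, n = 5), with an adjusted p of 0.536 (edgeR).

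For Btg4, the list was the machinery of deadenylation and decay, of which 34 of 35 were tested, 5 rose and 6 fell (32.4% called, beside 24.9% of all genes), with a median log2 change of -0.55. Cnot9, a CCR4-NOT subunit, rose from 54.2 CPM ± 11.5 (SD, n = 4) to 311 CPM ± 82.3 (SD, n = 5), a log2 change of 2.53 ± 0.24 (SE) with an adjusted p of 1.36e-07 (edgeR). Btg2, a relative of Btg4 that also binds the deadenylase, rose from 0.670 CPM ± 0.760 (SD, n = 4) to 9.44 CPM ± 3.50 (SD, n = 5). Zfp36l1, which recruits decay factors to AU-rich messages, was called higher at levels under 1 CPM, and its call ended in 11 of 19 alternatives. Cnot7, the deadenylase subunit that BTG4 binds, was at 223 CPM ± 36.8 (SD, n = 4) and 149 CPM ± 11.5 (SD, n = 5), with an adjusted p of 0.125 (edgeR), and Cnot6l, the other catalytic subunit, at 33.4 CPM ± 19.1 (SD, n = 4) and 12.4 CPM ± 6.95 (SD, n = 5), with an adjusted p of 0.0553 (edgeR). DESeq2 called Cnot6l lower, at an adjusted p of 0.0183, as did edgeR without 8-cell embryo 1 or control morula 5, at 0.00964 and 0.0224. Cnot7 was called lower with only the compared groups in the fit, at an adjusted p of 0.0157 (edgeR).

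For Mos, 22 of 23 genes of the MAP kinase cascade and meiotic arrest were tested, 4 rose and 1 fell (22.7% called, beside 24.9% of all genes), with a median log2 change of -0.06. Ccnb2, a B-type cyclin, rose from 101 CPM ± 44.8 (SD, n = 4) to 265 CPM ± 36.1 (SD, n = 5). Map2k2, a MAP kinase kinase, rose from 56.9 CPM ± 17.8 (SD, n = 4) to 99.4 CPM ± 17.3 (SD, n = 5), and Cdc20, an activator of the anaphase-promoting complex, from 246 CPM ± 29.0 (SD, n = 4) to 416 CPM ± 106 (SD, n = 5). Wee2, the oocyte kinase that holds CDK1 inactive and a gene of both this list and the oocyte list, was at 0 in the morulae, with an 8-cell mean at least 30.4-fold higher and an adjusted p of 0.0171 (edgeR). It is named as the single gene of the list that fell.

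For Kit, the ligand and signal genes made up a list of 24, all tested, of which 4 rose and 7 fell (45.8% called, beside 24.9% of all genes), with a median log2 change of 0.40. Gab2, a docking adaptor, rose from 0.104 CPM ± 0.208 (SD, n = 4) to 8.21 CPM ± 3.45 (SD, n = 5), and Stat3, a transcription factor of cytokine signals, from 1.62 CPM ± 1.82 (SD, n = 4) to 33.1 CPM ± 14.9 (SD, n = 5). Sos2, a Ras exchange factor, fell from 26.8 CPM ± 18.04 (SD, n = 4) to 2.71 CPM ± 2.42 (SD, n = 5). Kitl, the ligand of KIT, was named after its values were seen. It averaged 4.75 CPM ± 7.04 (SD, n = 4) in 8-cell embryos and 0 in the morulae, at least 27.1-fold apart. The adjusted p was 0.0237 (edgeR), and the call ended in 2 of 19 alternatives.

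Of the members, Zp3 alone had a mean log2 CPM of at least 1 over the 18 units, and the tested genes most like it by Pearson's r of log2 CPM were Ddx47 at 0.86, Mcfd2 at 0.84 and Nob1 at 0.82. The 18 units share stage and depth, so these values are a description.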

How the data were processed

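Counts were raw reads per gene deposited by the authors, and the deposited TPM values were computed by the authors. Build GRCm39 and the tools HISAT2, featureCounts, cutadapt, FastQC, MultiQC and edgeR are listed in the submitters' processing notes, without versions; annotation release and strand setting are not given in the sources used here. Sister counts were summed, giving 18 units in 5 groups. edgeR 4.0.16 (R 4.3.3; filterByExpr, TMM scaling with factors 0.880 to 1.31, robust quasi-likelihood, 1 fit, 13 residual degrees of freedom) tested 15875 genes two-sidedly, with Benjamini-Hochberg adjustment over all of them, called under 0.05. Levels are CPM without TMM factors, over embryos unless units are named. Floors were 3 counts per library at the median library total of the group at 0. limma 3.58.1 and DESeq2 1.42.0 served as alternatives. Of 100 simulated 8-fold changes between control morulae and 8-cell embryos 82 were recovered, and of 100 at 2-fold 4 were, over 15186 genes. The changed genes were drawn from those with a mean above 5 CPM, at the spread typical of their level. This recovery therefore does not describe members at lower levels or with a wider spread. Reads were not tagged by molecule, and intervals and floors therefore reflect counting error alone. The labels do not say that replicates came from separate cultures or parents, so p-values reflect only how these units vary, which may be technical. Members and lists were chosen with earlier results of these data known. All 9 members were named, and of each list up to 3 called genes with the largest change and a mean log2 CPM of at least 1 were named. Genes outside that rule are those said to be chosen after their values were seen or because a count was small, and Bmpr2, Cnot7, Cnot6l, Gata3 and the markers, named for their roles. No 2 libraries were copies.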

Additional observations from a re-analysis of the deposited data

Results flagged for a closer look

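Within groups of 4 to 6 embryos, 27 comparisons of a member's highest or lowest embryo with the others were made by Dixon's test, and 13 had 1 embryo standing apart, where chance gives about 1 group in 20. Many groups held 1 embryo with counts among embryos at 0, which meets this criterion whatever the number of counts. The rate of 1 in 20 is therefore no baseline for such groups. In each split group the 6 embryos entered as single values, although they form 3 sister pairs. That rate is no baseline for them for this reason too. In control 8-cell embryos, Rfpl4 stood apart at 42.6 CPM in embryo 2 and Mos at 2.02 CPM in embryo 4. In control morulae, embryo 5 stood apart for Gdf9 at 2.63 CPM and for Bmp15 at 3.16 CPM, and embryo 4 for Rfpl4 at 0.119 CPM. In split morulae, the first sister of pair 1 stood apart for Zp1 at 2.06 CPM and Kit at 5.72 CPM, and the second sister of pair 3 for Gdf9 at 0.312 CPM and Btg4 at 1.75 CPM. In split blastocysts, the second sister of pair 3 stood apart for Zp1 at 2.62 CPM, the second of pair 1 for Zp2 at 1.53 CPM, the second of pair 2 for Btg4 at 0.179 CPM and the first of pair 3 for Kit at 0.0514 CPM.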

How the results depend on the processing

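Log2 changes of 46 named genes and comparisons were recomputed, giving 868 values, of which 769 kept their direction and side of the threshold, 86 lost a call, 11 gained one and 2 reversed. Both that reversed were Zp3 from split morula to split blastocyst, at -0.0101 and -0.33, each with a pair left out. The count of members called from 8-cell to control morula was 3, and ranged from 0 to 3 when 1 embryo was left out. It became 0 with only the compared groups, where the filter on low counts removed the 3 called members. The highest count over all alternatives was 4. From 8-cell to control blastocyst the count was 2, and ranged from 0 to 2 when 1 embryo was left out. It became 1 with library totals only, limma-voom, sisters kept apart as single samples, only the compared groups or the replicate block. With limma on log2(TPM + 1) it became 5, where 4467 of all 15625 genes were called higher and 1774 lower. The main fit called 2384 of 15875 genes higher and 1888 lower. From 8-cell to split morula the count was 2, and ranged from 0 to 2 when 1 embryo or pair was left out. It became 4 with DESeq2, limma-voom or sisters kept apart. Over all genes DESeq2 called 2457 higher and 1848 lower, limma-voom 2346 and 1929, and the fit with sisters apart 1989 and 1834. The main fit called 1966 higher and 1170 lower. For split against control morulae DESeq2 gave 1, where it called 266 of all genes higher and 410 lower. Counts of the other comparisons stayed at 0 under all alternatives run, although with only the compared groups the filter left 1 to 5 members. The cause of these shifts was not tested, beyond the smaller samples of some fits.

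Among the lists from 8-cell to control morula, limma-voom called 19 other oocyte genes against 12 (10 to 12 with 1 embryo left out), DESeq2 17 decay genes against 11 (10 to 13), only the compared groups 3 Mos-related genes against 5 (3 to 5) and 1 receptor gene against 4 (2 to 5), and the replicate block 1 receptor gene and 1 zona gene against 3 (2 to 3). Over all genes the main fit called 2267 higher and 1693 lower, limma-voom 2438 and 1890, and DESeq2 2859 and 2066. With only the compared groups these were 1591 and 1568, and with the replicate block 1580 and 1411. Between split and control blastocysts, the 2 other oocyte genes became 1 with library totals, no filter on low counts or with sisters kept apart, and 0 with limma-voom, log2(TPM + 1) and log2(TPM + 0.1), with 0 to 1 when 1 unit was left out. Between split and control morulae DESeq2 called 3 other oocyte genes against 0, where it called 266 of all genes higher and 410 lower.

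The replicate numbers of control embryos did not pair them: deviations of same-numbered embryos correlated at -0.0333 to 0.0249 over 10 pairs. With the replicate block over control embryos, 2 of 7 tested members were called from 8-cell to morula (Rfpl4 and Gdf9, with Zp1 not tested) and 0 from morula to blastocyst. Levels under 3 counts cannot be told from 0 in any library, which is a higher CPM in the shallower ones.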
